A study of Mus musculus with 12 samples.

Results

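The genes of autophagy and mitophagy were followed in the left ventricles of mice that lacked, or did not lack, Adam17 in cardiomyocytes and that received doxorubicin or saline. The set held 40 of the 53465 genes in the count table, chosen by gene name from the known parts of the pathway, with no threshold on their values. All 40 passed the filter on low counts. Each was assigned one of 9 roles, from the kinase complex that starts an autophagosome to the lysosomal enzymes that digest its content. The question was whether their transcripts differed with doxorubicin, with the deletion, or with both together. The study itself examined p62 and LC3, the proteins made from Sqstm1 and the Map1lc3 genes, in the same 4 groups. It reported that neither protein differed among them, and proposes that ADAM17 deficiency probably did not act through better autophagy. Transcripts and proteins are unlike measures.

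Mice of each genotype, A17fl/fl and A17α-MHCKO, received normal saline (NS) or doxorubicin (DOX), which gave 4 groups of 3 mice with 1 library per mouse. Both genotypes carried the floxed Adam17 gene on a C57BL/6J background, and the A17fl/fl mice were littermates without Cre. In A17α-MHCKO mice, Cre driven by the α-MHC promoter removed exon 2 of Adam17 in cardiomyocytes, so other cells of the ventricle kept an intact gene. The mice were males aged 8 weeks at the first injection. Doxorubicin, an anthracycline given against tumours that injures the heart, was injected 4 times at 5 mg/kg, 20 mg/kg in all. Control mice received saline alone, and the hearts were taken 4 weeks after the last injection.

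In macroautophagy a double membrane closes around cytoplasm or an organelle and fuses with a lysosome. The ULK1 kinase complex starts the process, the BECN1 lipid kinase complex marks the membrane, and 2 ubiquitin-like systems attach ATG8 proteins such as LC3 to its lipids. Cargo receptors such as p62 tie ubiquitylated cargo to ATG8 proteins. Mitophagy uses the same machinery for mitochondria, through the kinase PINK1 or through receptors in the mitochondrial outer membrane such as BNIP3. In heart muscle, which is dense in mitochondria, the pathway removes damaged organelles and aggregated protein. Transcript levels do not measure its flux.

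The libraries held between 15950717 and 21725076 counts, with a median of 16413855. Levels are given as CPM, counts scaled to a common library total after TMM, a normalization that aligns most genes between libraries. Adam17 itself ranged from 43.6 to 70.9 CPM in A17fl/fl mice and from 27.9 to 36.8 CPM in A17α-MHCKO mice. A17fl/fl + NS replicate 1 stood apart from the other 11 libraries, with a mean correlation of 0.900 to the others against 0.948 to 0.966. In that library the summed level of 10 cardiomyocyte markers was 18976 CPM, against 30549 to 49275 CPM in the others. The summed level of 7 neutrophil markers was 2325 CPM against 5.39 to 67.1 CPM, that of 9 macrophage markers 2747 CPM against 774 to 1149.5 CPM, and that of 7 fibroblast markers 8553 CPM against 1277 to 2809 CPM. Of the neutrophil markers, 1 was at 0 counts in some library, and none of the cardiomyocyte, macrophage or fibroblast markers was. Values without it are given beside some of the calls and list counts that turn on it. In whole ventricle, fewer cells of a type and less RNA per cell cannot be told apart.

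Per length, the members spanned a wide range of levels. FPKM is the count scaled by library total and by the length assigned to a gene. It allows genes to be compared within a library only as far as that length is right. The lengths used are not in the table of counts. For example, Tfe3 had a median of 19.6 CPM and 0.933 FPKM, and Atg5 17.9 CPM and 7.07 FPKM. Orders between genes by FPKM therefore depend on those lengths. The median over the 12 libraries was above 100 FPKM for 4 members, from 10 to 100 FPKM for 12 and below 10 FPKM for 24. The highest median levels were 198 FPKM for Map1lc3a, 196 FPKM for Ctsd, 158 FPKM for Lamp1 and 146 FPKM for Pink1. The lowest were 1.68 FPKM for Rb1cc1, 1.67 FPKM for Atg7 and 0.933 FPKM for Tfe3. The 12 members of conjugation and nucleation had medians from 1.67 to 11.5 FPKM, below each of the 4 lysosomal members, of which Ctsl was lowest at 16.5 FPKM.

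The order of FPKM within families was stable between mice. Among the ATG8 genes, Map1lc3a exceeded Gabarap in 12 of 12 libraries, Gabarap (median level 61.8 FPKM) exceeded Gabarapl1 (32.8 FPKM) in 11 of 12, Gabarapl1 exceeded Gabarapl2 (19.1 FPKM) in 12 of 12, and Gabarapl2 exceeded Map1lc3b (7.30 FPKM) in 12 of 12. By median CPM Map1lc3b (76.8 CPM) lay above Gabarapl2 (54.7 CPM), so the order of these 2 genes rests on the lengths used. Gm6055, a near-identical copy of Map1lc3b described below, held 26.7% to 45.2% of their summed counts. Among mitophagy genes the order Pink1, Bnip3 (43.8 FPKM), Bnip3l (9.41 FPKM) and Fundc1 (6.02 FPKM) held in all 12 libraries. Among the transcription factors the order Foxo3 (10.2 FPKM), Foxo1 (4.43 FPKM), Tfeb (3.09 FPKM) and Tfe3 held in all 12 as well. Lamp2 (20.6 FPKM) and Ctsl (16.5 FPKM) were the least separated of the pairs compared, in that order in 10 of 12 libraries.

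**Figure D1:**
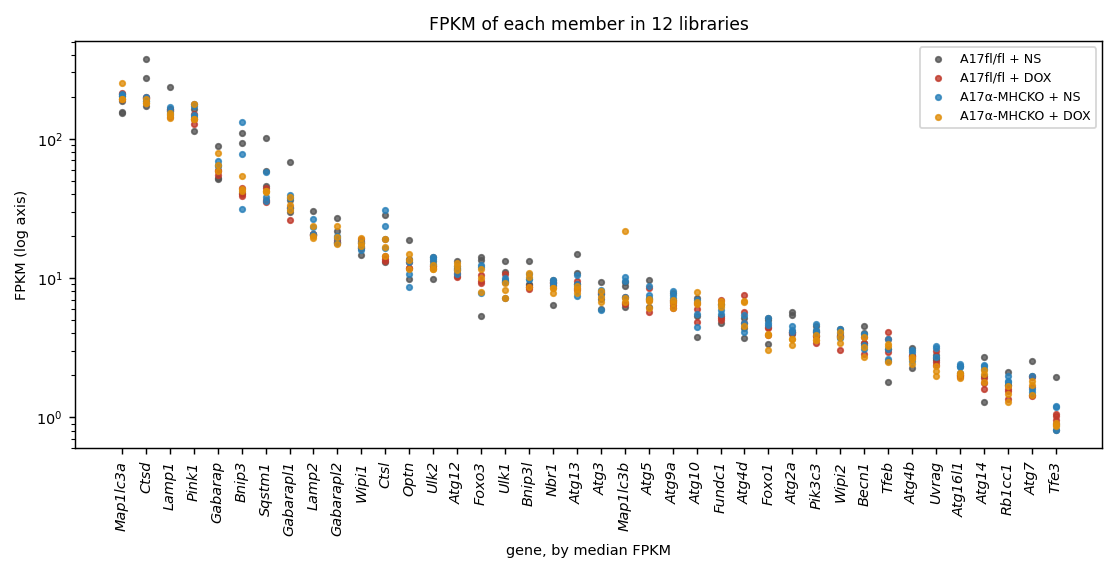
FPKM of each of the 40 members (log axis), ordered by its median, with 1 point for each of the 12 libraries coloured by group. Map1lc3a, Ctsd, Lamp1 and Pink1 lie above 100 FPKM by median, and Tfe3 is lowest at 0.933 FPKM.

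The libraries of A17fl/fl + NS mice differed from each other far more than those of the other groups. The median standard deviation of log2 CPM over the members was 0.32 in A17fl/fl + NS, 0.10 in A17fl/fl + DOX, 0.14 in A17α-MHCKO + NS and 0.14 in A17α-MHCKO + DOX. In A17fl/fl + NS the standard deviation exceeded 0.5 for 11 members, namely Atg10, Atg14, Bnip3, Ctsd, Ctsl, Foxo3, Gabarapl1, Optn, Sqstm1, Tfe3 and Ulk1. It did so for 0 members in A17fl/fl + DOX, for Bnip3 alone in A17α-MHCKO + NS and for Map1lc3b alone in A17α-MHCKO + DOX. The wide spread was not particular to autophagy, since among the 9849 genes with at least 5 CPM in every library the median standard deviation in A17fl/fl + NS was 0.31 and 25.4% exceeded 0.5. A17fl/fl + NS replicate 3 had the highest CPM of all 12 libraries for 17 of the 40 members. That is a larger share than the 16.4% of the 9849 genes for which it did. Replicate 1 had the highest for 11 members and the lowest for 9, against 26.9% and 26.4% of those genes.

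**Figure D2:**
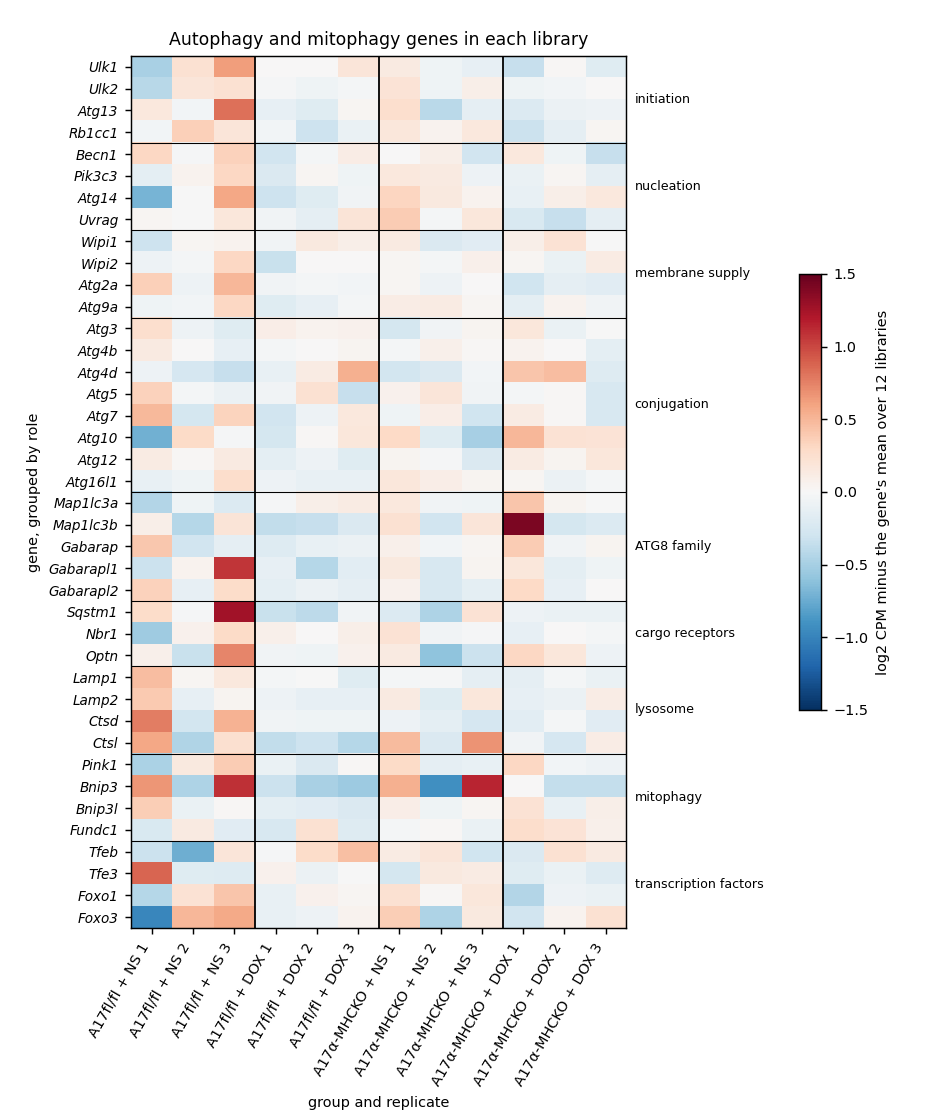
Log2 CPM of the 40 members in each of the 12 libraries, minus the gene's mean over the libraries (colour scale from -1.5 to 1.5), with genes grouped by role and vertical lines between groups. Strong colours are concentrated in A17fl/fl + NS replicates 1 and 3, in Bnip3 of the A17α-MHCKO + NS libraries and in Map1lc3b of A17α-MHCKO + DOX replicate 1.

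No member passed an adjusted p of 0.05 in any of 7 comparisons by edgeR's quasi-likelihood test, fitted to all 16101 tested genes at once. DESeq2 gave 0 members at that threshold in each comparison too, and from 1 to 9 at an unadjusted p under 0.05. The standard error (SE) of a log2 fold change is from edgeR. Among all tested genes, 0.0186% passed it between the genotypes after saline, 0.00621% after doxorubicin and 0.0248% for the genotype averaged over treatments, and 0% in the other 4 comparisons. The smallest adjusted p of a member was 0.363. At an unadjusted p under 0.05, the threshold of the study's methods, 10 of the 40 members were called in at least 1 comparison. In what follows a member is called where its unadjusted p was under 0.05, and each call is one among many tested. Bnip3 was the one member with an absolute log2 fold change over 1.

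With doxorubicin in A17fl/fl mice, 4 of 40 members had an unadjusted p under 0.05 by edgeR's test, against 10.7% of all tested genes. All 4 were lower, Sqstm1, Atg2a, Rb1cc1 and Bnip3, and 6.58% of all tested genes were called lower. DESeq2 gave 9 of 40 members, against 11.3% of all genes. The log2 fold change was negative for 32 members and positive for 8 (44.5% of all tested genes were positive), with a median of -0.21 over the members and -0.04 over all tested genes. Without A17fl/fl + NS replicate 3 the median of the members was -0.06 and 13 were positive. CPM did not overlap between the groups for 5 members, against 13.3% of all tested genes. Map1lc3a was higher, as were 7.15% of all tested genes without overlap, and Atg12, Sqstm1, Lamp1 and Bnip3l were lower, as were 6.11%.

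With doxorubicin in A17α-MHCKO mice, 1 of 40 members (2.5%) had an unadjusted p under 0.05 by edgeR's test, Uvrag, against 6.42% of all tested genes, with 2.44% called lower as it was. The log2 fold change was positive for 18 members (50.5% of all tested genes) and negative for 22, with a median of -0.02 over the members and 0.00 over all tested genes. CPM did not overlap for 7 members, against 16.9% of all tested genes. Atg12 and Fundc1 were higher (9.16% of all tested genes) and Rb1cc1, Uvrag, Atg2a, Atg16l1 and Foxo1 lower (7.79%).

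Between the genotypes after saline, 2 of 40 members (5.0%) were called at an unadjusted p under 0.05 by edgeR's test, Ctsd and Sqstm1, both lower in A17α-MHCKO, against 10.1% of all tested genes called and 6.53% called lower. Lamp1 alone did not overlap between the groups and was lower, against 10.9% of all tested genes without overlap and 5.34% lower without overlap. After doxorubicin 2 of 40 were called, Atg12 and Map1lc3b, both higher in A17α-MHCKO, against 2.70% of all tested genes called and 1.52% called higher. Here 9 members did not overlap, against 14.1% of all tested genes. They were Atg10, Atg12, Gabarap, Ctsl and Bnip3l, which were higher in A17α-MHCKO (6.96% of all tested genes), and Uvrag, Atg2a, Nbr1 and Tfe3, which were lower (7.13%). The log2 fold change was positive for 26 members, and for 51.1% of all tested genes. These 4 comparisons share groups, so their calls are not independent of each other.

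The interaction, which is the change with doxorubicin in A17α-MHCKO minus that in A17fl/fl, was called at an unadjusted p under 0.05 for 2 of 40 members by edgeR's test, Atg12 and Sqstm1, against 5.99% of all tested genes called and 3.50% called positive, as both were. Averaged over the genotypes, doxorubicin gave 6 of 40 (15.0%), Atg4d higher and Rb1cc1, Bnip3, Ctsl, Atg2a and Uvrag lower, against 10.7% of all tested genes called, 5.47% higher and 5.20% lower. The genotype averaged over the treatments gave Atg2a alone, lower in A17α-MHCKO, against 6.65% of all tested genes called and 3.89% called lower. No member separated all 6 saline from all 6 doxorubicin libraries (1.16% of all tested genes) or all 6 of one genotype from all 6 of the other (0.335%).

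**Figure D3:**
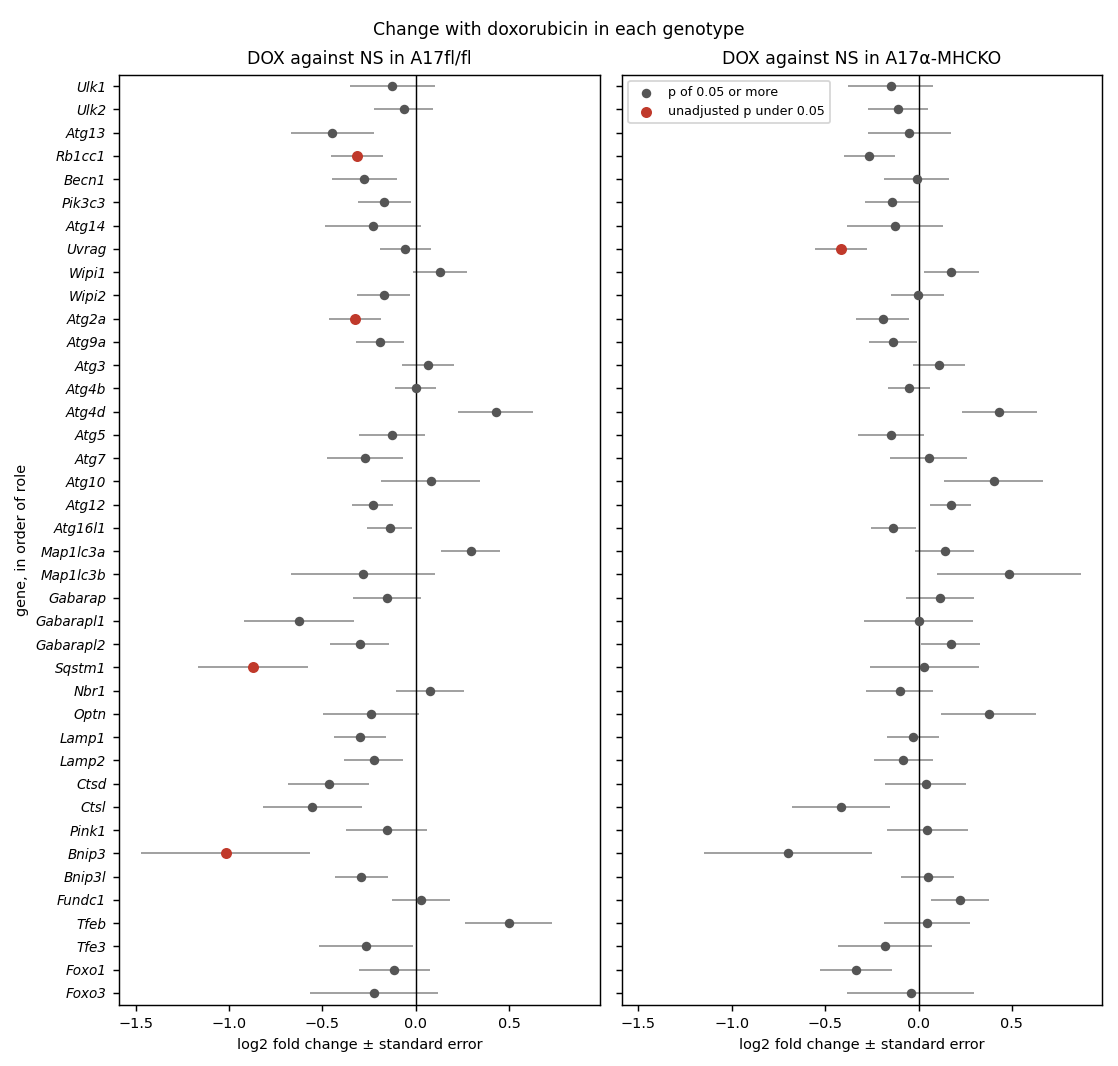
Log2 fold change with doxorubicin against saline for each of the 40 members, in A17fl/fl mice and in A17α-MHCKO mice, with bars of 1 standard error. Red points mark an unadjusted p under 0.05 by edgeR's test, 4 members in A17fl/fl and 1 in A17α-MHCKO.

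Among the initiation genes, Rb1cc1 was lower after doxorubicin in both genotypes. It encodes FIP200, the scaffold of the ULK1 complex. It had 36.1, 47.7 and 42.2 CPM in A17fl/fl + NS, 36.2, 30.2 and 34.7 CPM in A17fl/fl + DOX, 42.0, 38.7 and 41.5 CPM in A17α-MHCKO + NS and 29.8, 34.1 and 37.9 CPM in A17α-MHCKO + DOX. The groups overlapped in A17fl/fl mice by a small margin and did not overlap in A17α-MHCKO mice. Averaged over the genotypes the log2 fold change was -0.29 (SE 0.10, adjusted p = 0.372, edgeR), and an exact permutation test of the 6 saline against the 6 doxorubicin libraries, two-sided, gave p = 0.00649. The edgeR call was kept without each of the 12 libraries in turn. In A17fl/fl alone the log2 fold change was -0.32 (SE 0.14, adjusted p = 0.455), and the call was lost without A17fl/fl + NS replicate 2 or 3 or A17fl/fl + DOX replicate 2 or 3. It was also lost with upper-quartile normalization, with no filter on low counts, with at least 10 counts asked for in every library and with the 2 groups fitted alone.

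Ulk1, the kinase of that complex, had 65.7, 108 and 141 CPM in A17fl/fl + NS and 91.9, 92.4 and 104 CPM in A17fl/fl + DOX. It had 101, 87.7 and 84.2 CPM in A17α-MHCKO + NS and 72.3, 92.9 and 80.6 CPM in A17α-MHCKO + DOX. The A17fl/fl + NS libraries thus held both its lowest and its highest value. Its log2 fold change with doxorubicin averaged over the genotypes was -0.14 (SE 0.16, adjusted p = 0.772, edgeR). Ulk2 and Atg13 were called in none of the 7 comparisons, and Atg13 reached 119 CPM in A17fl/fl + NS replicate 3 against 50.6 to 79.6 CPM in the other libraries.

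Among the nucleation genes, Uvrag was lower after doxorubicin in A17α-MHCKO mice. It encodes a subunit of a BECN1 complex that acts in endosome and autophagosome maturation. It had 42.6, 32.0 and 37.0 CPM in A17α-MHCKO + NS and 28.0, 25.9 and 29.8 CPM in A17α-MHCKO + DOX, with no overlap. In A17fl/fl mice it had 33.4, 32.7 and 36.8 CPM after saline and 31.6, 30.0 and 37.4 CPM after doxorubicin, and these groups overlapped. In A17α-MHCKO the log2 fold change was -0.41 (SE 0.14, adjusted p = 0.705, edgeR), and the call was lost without A17α-MHCKO + NS replicate 1. Over both genotypes it was -0.24 (SE 0.10, adjusted p = 0.436), a call lost without any one of A17fl/fl + NS replicate 3, A17α-MHCKO + NS replicates 1 and 3, A17fl/fl + DOX replicates 1 and 2, and A17α-MHCKO + DOX replicate 2, or with upper-quartile normalization. Becn1, Pik3c3 and Atg14 were called in no comparison, and their log2 fold changes with doxorubicin were negative in both genotypes.

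Among the genes of membrane supply, Atg2a was called in 3 comparisons, as Sqstm1 was. It encodes a lipid transfer protein that feeds the growing membrane. It had 50.8, 37.7 and 56.3 CPM in A17fl/fl + NS, 38.1, 38.8 and 38.5 CPM in A17fl/fl + DOX, 40.6, 37.6 and 39.9 CPM in A17α-MHCKO + NS and 32.2, 36.0 and 35.2 CPM in A17α-MHCKO + DOX. Replicates 1 and 3 of A17fl/fl + NS were the highest of the 12 libraries, and the 3 A17α-MHCKO + DOX libraries were the lowest. With doxorubicin averaged over the genotypes its log2 fold change was -0.26 (SE 0.10, adjusted p = 0.413, edgeR), and the call was lost without A17fl/fl + NS replicate 3, A17α-MHCKO + NS replicate 1 or A17α-MHCKO + DOX replicate 1.

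In A17fl/fl alone the change of Atg2a with doxorubicin was -0.33 (SE 0.14, adjusted p = 0.453, edgeR), and the call was kept only without A17fl/fl + NS replicate 2 among the 6 libraries compared, and lost with upper-quartile normalization, no filter or the 2 groups alone. Between the genotypes averaged over the treatments it was -0.23 (SE 0.10, adjusted p = 0.743), and again the call was kept only without A17fl/fl + NS replicate 2 among the 12 libraries, and was lost with upper-quartile normalization or no filter. Wipi1, Wipi2 and Atg9a were called in no comparison.

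Among the conjugation genes, the change of Atg12 with doxorubicin had opposite signs in the genotypes. It encodes the ubiquitin-like protein that is joined to ATG5 and helps to place LC3 on the membrane. It had 31.4, 29.1 and 31.5 CPM in A17fl/fl + NS and 25.9, 27.2 and 25.4 CPM in A17fl/fl + DOX, so that every doxorubicin library lay below every saline library. In A17α-MHCKO mice its values were 29.6, 28.4 and 24.8 CPM after saline and 31.3, 29.7 and 32.3 CPM after doxorubicin, so that every doxorubicin library lay above. The interaction was 0.40 on the log2 scale (SE 0.15, adjusted p = 0.828, edgeR). That call was lost without A17fl/fl + DOX replicate 3, A17α-MHCKO + NS replicate 3 or A17α-MHCKO + DOX replicate 3, or with no filter.

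After doxorubicin Atg12 was higher in A17α-MHCKO than in A17fl/fl, with a log2 fold change of 0.25 (SE 0.11, adjusted p = 0.9998, edgeR), and the groups did not overlap. An exact permutation test, two-sided, gave p = 0.1, the smallest that 3 against 3 allow. The edgeR call was lost without any of the 3 A17fl/fl + DOX libraries or without A17α-MHCKO + DOX replicate 1 or 3, or with no filter.

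Atg4d, a protease that trims and releases ATG8 proteins, was the one member called higher with doxorubicin. It had 46.9, 41.6 and 39.0 CPM in A17fl/fl + NS, 45.8, 53.9 and 71.7 CPM in A17fl/fl + DOX, 40.9, 42.5 and 48.4 CPM in A17α-MHCKO + NS and 66.2, 68.2 and 43.4 CPM in A17α-MHCKO + DOX. The highest 4 of the 12 values came from doxorubicin libraries, while 1 library of each doxorubicin group lay within the saline range. Averaged over the genotypes the log2 fold change was 0.43 (SE 0.14, adjusted p = 0.363, edgeR), and the call was kept without each of the 12 libraries in turn. It was 0.43 in A17fl/fl (adjusted p = 0.477) and 0.43 in A17α-MHCKO (adjusted p = 0.785), with an interaction of 0.00 (SE 0.28). The other 6 conjugation genes, Atg3, Atg4b, Atg5, Atg7, Atg10 and Atg16l1, were called in no comparison.

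Among the ATG8 genes the one call turned on a single library. Map1lc3b encodes LC3B, the form most often used to mark autophagosomes. It had 94.3, 65.7 and 102 CPM in A17fl/fl + NS, 68.6, 70.0 and 76.4 CPM in A17fl/fl + DOX, and 104, 72.6 and 101 CPM in A17α-MHCKO + NS. In A17α-MHCKO + DOX it had 237, 73.9 and 77.1 CPM, so that replicate 1 was more than double any other of the 12 libraries. After doxorubicin it was higher in A17α-MHCKO, with a log2 fold change of 0.85 (SE 0.39, adjusted p = 0.9998, edgeR). Without that replicate the log2 fold change was 0.08. The call was also lost without any 1 of the 3 A17fl/fl + DOX libraries and with the 2 groups alone.

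The count of Map1lc3b can exchange fragments with a near-identical copy. Gm6055, a processed pseudogene on chromosome 14, matches the 378 coding bases of Map1lc3b at 377 of them. It held 745 to 1377 counts per library against 1091 to 3759 for Map1lc3b, between 26.7% and 45.2% of the sum of both. A stretch of 120 coding bases is shown from each to make the likeness visible, read 5′ to 3′ from GRCm38, with the base of the copy that differs in capitals. It is taken from coding bases 146 to 265 of Map1lc3b (chr8:121596035-121596657, plus strand, interrupted by an intron) and from Gm6055 (chr14:48079488-48079607, minus strand).
Map1lc3b: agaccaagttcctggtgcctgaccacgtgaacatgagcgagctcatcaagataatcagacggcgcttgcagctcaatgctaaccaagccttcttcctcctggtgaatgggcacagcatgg
Gm6055: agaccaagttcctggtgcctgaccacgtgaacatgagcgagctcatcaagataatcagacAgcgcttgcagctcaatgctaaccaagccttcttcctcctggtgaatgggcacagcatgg

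Gm6055 had 86.0 CPM in A17α-MHCKO + DOX replicate 1, the highest of the 12 libraries, and 44.6 to 80.0 CPM in the others. With its counts added to those of Map1lc3b, an alternative chosen after seeing the data, the difference between the genotypes after doxorubicin was 0.66 on the log2 scale and was no longer called by edgeR. The sum was 323 CPM in A17α-MHCKO + DOX replicate 1 and 110 to 181 CPM in the other 11 libraries, so the same library stood apart with or without the copy.

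**Figure D4:**
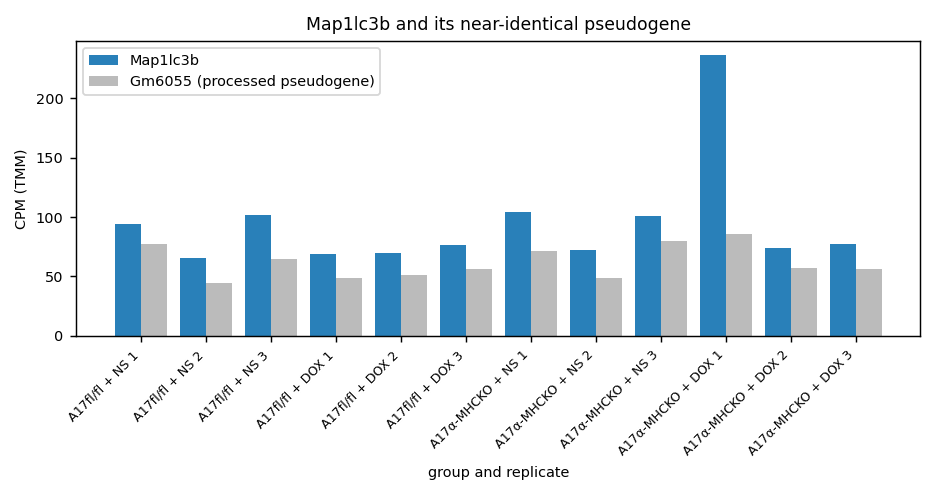
CPM of Map1lc3b (blue) and of its processed pseudogene Gm6055 (grey) in each of the 12 libraries, 1 bar per library. Map1lc3b reaches 237 CPM in A17α-MHCKO + DOX replicate 1, where Gm6055 reaches 86.0 CPM.

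Map1lc3a, Gabarap, Gabarapl1 and Gabarapl2 were called in no comparison. All 5 ATG8 genes had a positive log2 fold change with doxorubicin in A17α-MHCKO mice (50.5% of all tested genes did), with a median of 0.14 and Gabarapl1 lowest at 0.00. In A17fl/fl mice 1 of 5 was positive (44.5%), with a median of -0.28. Map1lc3a and Map1lc3b were highest of the 12 libraries in A17α-MHCKO + DOX replicate 1. Without that library 12 of the 40 members were positive in A17α-MHCKO mice, against 18 with it. No ATG8 gene was called for the interaction. Gabarapl1 ranged from 83.5 to 126 CPM in 11 libraries and reached 238 CPM in A17fl/fl + NS replicate 3.

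Among the cargo receptors, Sqstm1 had the smallest p of the members in A17fl/fl mice. It encodes p62, which carries ubiquitylated cargo into the autophagosome and is degraded there. It had 391, 318 and 774 CPM in A17fl/fl + NS and 256, 245 and 310 CPM in A17fl/fl + DOX. The groups did not overlap, but the lowest saline and the highest doxorubicin library were close, and replicate 3 of A17fl/fl + NS was about double the next highest of all libraries. In A17α-MHCKO mice its values were 281, 233 and 373 CPM after saline and 306, 299.8 and 301 CPM after doxorubicin, and these groups overlapped.

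With doxorubicin in A17fl/fl mice the log2 fold change of Sqstm1 was -0.87 (SE 0.29, adjusted p = 0.388, edgeR), and without A17fl/fl + NS replicate 3 it was -0.39. In A17α-MHCKO mice it was 0.03 (SE 0.29, adjusted p = 0.989). The interaction was 0.90 (SE 0.41, adjusted p = 0.828), and without A17fl/fl + NS replicate 3 it was 0.42. That call was kept only without A17fl/fl + NS replicate 1 or 2 or A17α-MHCKO + NS replicate 3 among the 12 libraries. It was also lost with RLE or upper-quartile normalization and with at least 10 counts asked for in every library.

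After saline Sqstm1 was lower in A17α-MHCKO than in A17fl/fl, with a log2 fold change of -0.74 (SE 0.29, adjusted p = 0.427, edgeR). Without A17fl/fl + NS replicate 3 it was -0.26, and the call was also lost without A17α-MHCKO + NS replicate 1 or 2 and with the 2 groups alone. Optn, which encodes a receptor for ubiquitylated mitochondria, reached 114 CPM in A17fl/fl + NS replicate 3 against 45.4 to 85.5 CPM in the other libraries. Optn and Nbr1 were called in no comparison.

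Among the lysosomal genes, Ctsd was lower in A17α-MHCKO than in A17fl/fl after saline. It encodes cathepsin D, an aspartic protease of the lysosome. It had 1274, 615 and 1073 CPM in A17fl/fl + NS, 705, 673 and 626 CPM in A17α-MHCKO + NS, 718, 711 and 715 CPM in A17fl/fl + DOX and 669, 728 and 662 CPM in A17α-MHCKO + DOX. Replicates 1 and 3 of A17fl/fl + NS thus lay above all others and replicate 2 lay below all others. The log2 fold change between the genotypes after saline was -0.56 (SE 0.22, adjusted p = 0.412, edgeR). Without A17fl/fl + NS replicate 1, in which macrophage and neutrophil markers were high, it was -0.34. Without replicate 2 it was -0.81 (adjusted p = 0.0169, edgeR, over a range of 0.0169 to 0.920 among the alternatives). That was the one setting in which a member passed the adjusted threshold, and Ctsd did so for its change with doxorubicin in A17fl/fl mice as well (-0.71). It left replicates 1 and 3 in A17fl/fl + NS. More of all tested genes were also called there at an unadjusted p under 0.05 than with all libraries, in both comparisons, so the shift was not particular to Ctsd. The call was also lost without A17fl/fl + NS replicate 3 or A17α-MHCKO + NS replicate 2 or 3, and with the 2 groups alone. The part of the other cell types in it was not tested.

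Ctsl, which encodes the cysteine protease cathepsin L, was lower with doxorubicin averaged over the genotypes. It had 228, 112 and 180 CPM in A17fl/fl + NS, 118, 123 and 113 CPM in A17fl/fl + DOX, 212, 131 and 244 CPM in A17α-MHCKO + NS and 147, 129 and 165 CPM in A17α-MHCKO + DOX. In each genotype replicates 1 and 3 after saline were above every doxorubicin library, and replicate 2 was not. The log2 fold change was -0.48 (SE 0.19, adjusted p = 0.413, edgeR). The call was lost without any one of A17fl/fl + NS replicate 1, A17α-MHCKO + NS replicates 1 and 3, A17fl/fl + DOX replicate 3 and A17α-MHCKO + DOX replicate 2, and without the first of these the log2 fold change was -0.36. The membrane proteins Lamp1 and Lamp2 were called in no comparison, although Lamp1 had 636, 469 and 515 CPM in A17fl/fl + NS and 404 to 459 CPM over the other 3 groups, with no overlap.

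Among the mitophagy genes, Bnip3 varied most of all members, with the highest library 4.16 times the lowest. It encodes a receptor of the mitochondrial outer membrane that is induced by hypoxia. It had 279, 128 and 378 CPM in A17fl/fl + NS and 256, 93.5 and 389 CPM in A17α-MHCKO + NS. It had 141, 126 and 121 CPM in A17fl/fl + DOX and 178, 138 and 138 CPM in A17α-MHCKO + DOX. As for Ctsl, replicates 1 and 3 of both saline groups lay above every doxorubicin library. Replicate 2 of each lay among the doxorubicin libraries of A17fl/fl mice or below them, so the groups overlapped in both genotypes.

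For Bnip3 the log2 fold change with doxorubicin averaged over the genotypes was -0.86 (SE 0.32, adjusted p = 0.401, edgeR). An exact permutation test of 6 against 6 libraries, two-sided, gave an unadjusted p = 0.0563. The edgeR call was lost without replicate 3 of A17fl/fl + NS (-0.68) or of A17α-MHCKO + NS (-0.61). In A17fl/fl mice alone it was -1.02 (SE 0.45, adjusted p = 0.459). Bnip3 was the one member that met the limits of the study in any of the 4 comparisons of groups. These limits ask for a mean of more than 1 FPKM in some group and for a change of more than 1 on the log2 scale besides the unadjusted p. Of all tested genes, 2.82% met them with doxorubicin in A17fl/fl, 0.658% with doxorubicin in A17α-MHCKO, 2.99% between the genotypes after saline and 0.205% after doxorubicin. The call was kept only without A17fl/fl + NS replicate 2 among the 6 libraries and was lost with upper-quartile normalization, and without replicate 3 it was -0.66.

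The summed levels of other gene lists also differed among these saline libraries. The summed level of 14 circadian genes was 253 CPM in A17fl/fl + NS replicate 1, 405 CPM in A17α-MHCKO + NS replicate 1 and 454 CPM in A17α-MHCKO + NS replicate 3, and 678 to 955 CPM in the other 9 libraries. A17fl/fl + NS replicate 3, with high Bnip3, had 720 CPM of these genes. The summed level of 15 FoxO-responsive and fasting genes was 4077 CPM in A17fl/fl + NS replicate 3, 2716 CPM in A17α-MHCKO + NS replicate 1 and 1049 to 2200 CPM in the others. The summed level of 6 atrial markers ranged from 352 CPM in A17fl/fl + NS replicate 3 to 8389 CPM in A17α-MHCKO + NS replicate 3. The part of these differences in the levels of Bnip3 and Ctsl was not tested.

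Bnip3 has near-identical copies too. In GENCODE M21, 47.2% of the 50-base words of its transcripts also occur in other genes, the processed pseudogene Gm16439 and the unprocessed pseudogene Gm6532 among them. Gm6532 matched 551 of 559 coding bases of Bnip3 compared and held 73 to 318 counts per library, and Gm16439 matched 558 of 564 and held 0 to 176. Coding bases 3 to 122 are shown from Bnip3 (chr7:138898738-138909391, minus strand, interrupted by introns), Gm6532 (chr14:44265044-44265163, plus strand) and Gm16439 (chr14:44596667-44596786, plus strand) in GRCm38, with the bases of the copies that differ in capitals.
Bnip3: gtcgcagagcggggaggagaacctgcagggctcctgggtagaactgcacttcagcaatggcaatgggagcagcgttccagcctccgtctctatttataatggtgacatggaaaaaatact
Gm6532: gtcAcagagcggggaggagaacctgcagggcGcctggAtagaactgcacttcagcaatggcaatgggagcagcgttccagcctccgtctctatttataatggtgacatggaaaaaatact
Gm16439: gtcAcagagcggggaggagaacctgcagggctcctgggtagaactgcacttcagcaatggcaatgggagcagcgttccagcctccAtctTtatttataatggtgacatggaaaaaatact
Each copy held at most 4.50% of the summed counts, and adding both left the call of Bnip3 with doxorubicin in place in A17fl/fl mice and over both genotypes. Gm16439 shares 13.5% of the 50-base words of Bnip3 and Gm6532 10.8%, so further genes hold the rest of the shared words. The counts of those genes were not added.

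Pink1, the kinase that marks damaged mitochondria, was called in no comparison. It had 452, 694 and 817 CPM in A17fl/fl + NS, 586, 541 and 635 CPM in A17fl/fl + DOX, 764, 569 and 581 CPM in A17α-MHCKO + NS and 778, 607 and 593 CPM in A17α-MHCKO + DOX. All pairs of groups overlapped, and the log2 fold change with doxorubicin averaged over the genotypes was -0.05 (SE 0.15, adjusted p = 0.918, edgeR). Bnip3l and Fundc1, receptors that act beside BNIP3, were called in no comparison either. The 4 mitophagy genes all had a positive log2 fold change in A17α-MHCKO against A17fl/fl after doxorubicin, from 0.17 to 0.25. So did 26 of the 40 members, all 5 ATG8 genes among them, and 51.1% of all tested genes.

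**Figure D5:**
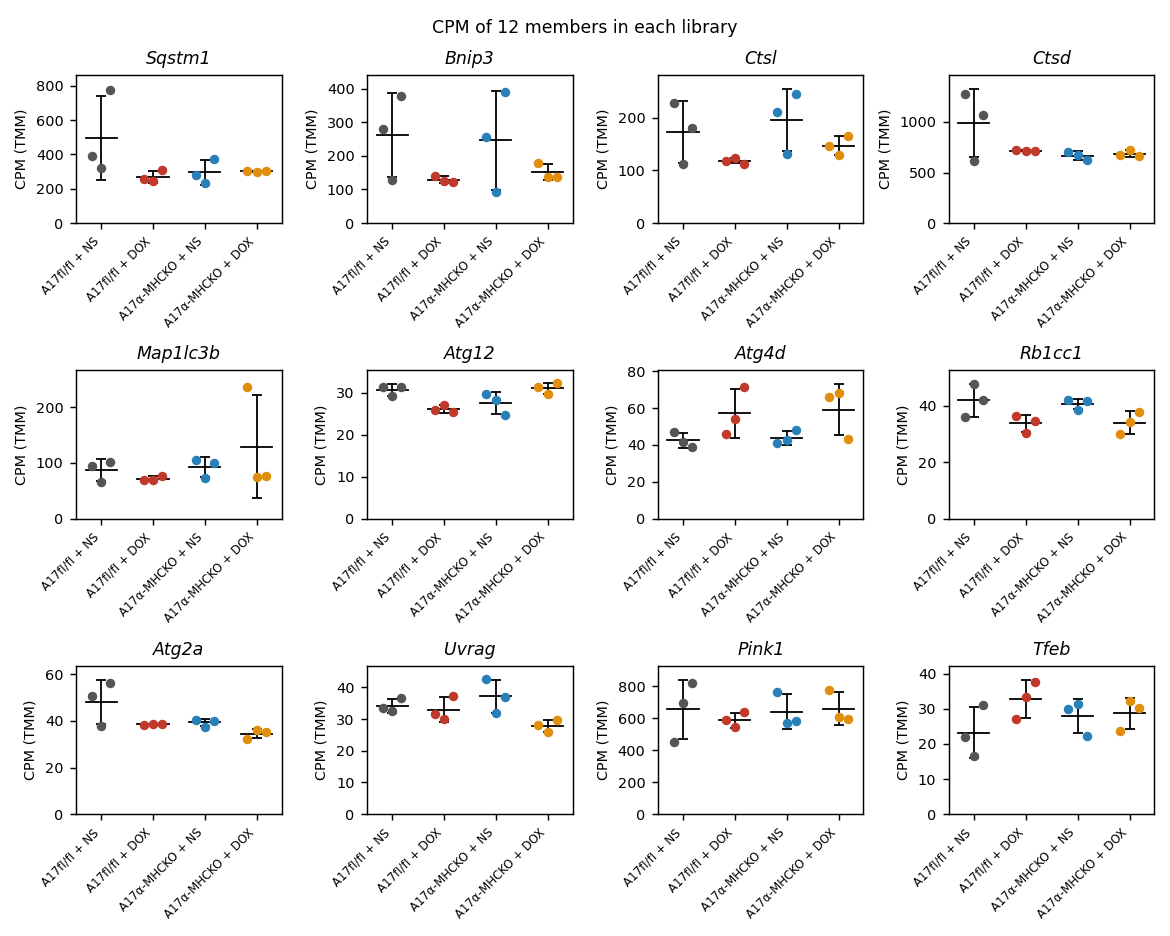
CPM of 12 members in each library (points), with the mean and standard deviation of each group of 3 (black lines and bars) and axes from 0. Sqstm1, Bnip3, Ctsl and Ctsd are spread widely in the A17fl/fl + NS group, and Map1lc3b is high in a single A17α-MHCKO + DOX library at 237 CPM.

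The transcription factors were called in no comparison. Tfeb, which drives lysosomal and autophagy genes, had 22.05, 16.6 and 31.1 CPM in A17fl/fl + NS, 27.2, 33.4 and 37.7 CPM in A17fl/fl + DOX, 29.9, 31.3 and 22.3 CPM in A17α-MHCKO + NS and 23.7, 32.2 and 30.3 CPM in A17α-MHCKO + DOX. All pairs of groups overlapped. Its log2 fold change with doxorubicin was 0.50 in A17fl/fl (SE 0.23, adjusted p = 0.476, edgeR) and 0.05 in A17α-MHCKO (adjusted p = 0.984), with an interaction of -0.45 (SE 0.33, adjusted p = 0.844). Foxo3 ranged from 56.9 CPM in A17fl/fl + NS replicate 1 to 166 CPM in replicate 3 of the same group. Tfe3, a relative of Tfeb, had 38.3 CPM in A17fl/fl + NS replicate 1 and 17.5 to 23.2 CPM in the other libraries.

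TFEB and TFE3 bind E-box sequences that contain CACGTG, so these letters were looked for near the starts of the members. RefSeq promoter windows on GRCm38.p6, from 250 bases before to 50 after a start, were matched for 33 of the 40 members (37 windows). CACGTG, which reads the same on both strands, lay in 8 of these windows (21.6%), those of Atg14, Atg3, Atg5, Atg7, Lamp1, Ctsd, Ctsl and Bnip3, and in 7.15% of all 32851 windows. The longer TCACGTGA, which contains it and is also its own complement, lay in those of Atg3 and Ctsd (5.41%) and in 0.974% of all windows. The stretches before the starts of 3 lysosomal members and of Bnip3, the members with calls or non-overlap whose windows held matches, are shown with CACGTG in capitals, each on the strand of its gene.
Lamp1, chr8:13159080-13159160, plus strand: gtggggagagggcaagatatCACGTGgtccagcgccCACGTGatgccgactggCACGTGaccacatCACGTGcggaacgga
Ctsd, chr7:142387900-142388077, minus strand: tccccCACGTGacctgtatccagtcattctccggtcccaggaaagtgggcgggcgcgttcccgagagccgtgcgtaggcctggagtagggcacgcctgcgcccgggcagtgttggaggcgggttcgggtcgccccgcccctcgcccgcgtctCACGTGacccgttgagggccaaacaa
Ctsl, chr13:64370731-64370770, minus strand: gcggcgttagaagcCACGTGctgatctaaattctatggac
Bnip3, chr7:138909589-138909634, minus strand: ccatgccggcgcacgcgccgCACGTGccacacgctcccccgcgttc
Lamp1 held 4 matches within 81 bases and Ctsd 2 within 178 bases. A match is a description of the sequence and does not show binding.

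Some members share sequence with other genes, pseudogenes among them. Of the 40 members, 13 shared no 50-base word with another gene of GENCODE M21, while 11 shared over 10%, namely Becn1, Uvrag, Atg4d, Atg9a, Gabarapl1, Gabarapl2, Sqstm1, Ctsd, Ctsl, Bnip3 and Bnip3l. Uvrag shared 15.9% with the antisense gene Gm45187 and Becn1 shared 36.8% with Cntd1, which overlaps it. The kit kept the strand, but the strand setting of the counting was not given in the sources used here. The levels of these 11 members are therefore less certain. So is that of Map1lc3b, which shared 6.01% of its words, since Gm6055 held 26.7% to 45.2% of their summed counts. Bnip3l-ps held 27.1% to 33.6% of the summed counts of Bnip3l and itself, and Gm3724 7.58% to 11.4% of those of Gabarapl2 and itself.

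Other genes of autophagy and the lysosome were followed as 8 lists, 144 tested genes outside the 40. With doxorubicin in A17fl/fl mice 1 of these was higher and 17 were lower at an unadjusted p under 0.05 by edgeR's test (12.5%, against 10.7% of all tested genes), and in A17α-MHCKO mice 7 were higher and 1 was lower (5.56%, against 6.42%). Between the genotypes 2 were higher and 18 lower in A17α-MHCKO after saline (13.9%, against 10.1%), and 0 were higher and 1 was lower after doxorubicin (0.694%, against 2.70%), namely Flnc. None had an adjusted p under 0.05 in these comparisons. Without A17fl/fl + NS replicate 1, left out after seeing the data, 2 were higher and 20 lower with doxorubicin in A17fl/fl (15.3%, against 10.2% of all tested genes), and 4 were higher and 20 lower between the genotypes after saline (16.7%, against 10.2%). Without replicate 3 the counts were 4 higher and 24 lower (19.4%, against 15.3%) and 8 higher and 25 lower (22.9%, against 14.9%). The genes called were partly others, as the following lists show.

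The 32 other lysosomal genes were lower for 8 with doxorubicin in A17fl/fl and for 11 in A17α-MHCKO against A17fl/fl after saline, and higher for 0 in either, while 6.58% and 6.53% of all tested genes were called lower. Their summed level was 5764 CPM in A17fl/fl + NS replicate 1, where macrophage and neutrophil markers were high, 4358 CPM in replicate 3, and 3166 to 3539 CPM in the other 10 libraries. Gla, which encodes a lysosomal galactosidase, had 29.5 CPM in A17fl/fl + NS replicate 1 and 2.52 to 5.04 CPM in all others. Without that replicate 4 of the 32 were lower with doxorubicin in A17fl/fl (5.60% of all tested genes were), and between the genotypes after saline 4 were lower (5.65%) and 2 higher. Gla was then no longer called with doxorubicin in A17fl/fl (-0.30 on the log2 scale, against -2.11 with all libraries). The part of the other cell types in these counts was not tested. The lysosomal members Ctsd and Lamp1 were likewise highest in A17fl/fl + NS replicates 1 and 3.

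With doxorubicin 10.7% of all tested genes were called in A17fl/fl mice (6.58% lower) and 6.42% in A17α-MHCKO mice (2.44% lower). Of 14 genes of autophagosome-lysosome fusion, 4 were lower with doxorubicin in A17fl/fl mice, and 0 were called in A17α-MHCKO. The 4 were Vps41, Snap29, Vps11 and Vps18 (the last named after its values were seen). Without A17fl/fl + NS replicate 1 Vps41, Snap29 and Vps11 were called and Vps18 was not. Of 16 genes of the lysosomal proton pump 1 was lower in A17fl/fl, Atp6v0c, which was not called without that replicate (-0.49 on the log2 scale, against -0.85), and 1 was higher in A17α-MHCKO, Atp6v1d, which was not called without A17fl/fl + NS replicate 3. Of 13 selective receptors 2 were lower in A17fl/fl, Sec62 and Tax1bp1, neither of which was called without A17fl/fl + NS replicate 3, and 1 in A17α-MHCKO, Wdfy3. Tax1bp1 was not called without A17fl/fl + NS replicate 1 either. Of 18 other mitophagy genes 0 were called in A17fl/fl and 2 were higher in A17α-MHCKO, Rhot2 (log2 fold change 0.49, adjusted p = 0.751, edgeR) and Parl (0.42, adjusted p = 0.761). None of the 18 other core autophagy genes was called in the comparisons of 2 groups or the interaction.

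Upstream, the nutrient-sensing GTPase Rragd, which helps to place mTORC1 and TFEB on lysosomes, was higher with doxorubicin in both genotypes. It had 46.6, 38.5 and 23.1 CPM in A17fl/fl + NS, 89.7, 89.2 and 96.1 CPM in A17fl/fl + DOX, 36.5, 81.5 and 39.5 CPM in A17α-MHCKO + NS and 107, 100.4 and 102 CPM in A17α-MHCKO + DOX. All 6 doxorubicin libraries lay above all 6 saline libraries. Over both genotypes the log2 fold change was 1.16 (SE 0.22, adjusted p = 0.137, edgeR), larger in size than that of any member. Of the 25 upstream genes 1 was higher (Rragd) and 2 were lower (Deptor and Akt1s1, neither called without A17fl/fl + NS replicate 3) with doxorubicin in A17fl/fl. In A17α-MHCKO 3 were higher (Sesn3, Rragd and Prkag1) and 0 lower. Sesn3 had 3.70, 4.75 and 4.59 CPM in A17α-MHCKO + NS and 15.5, 4.48 and 20.3 CPM in A17α-MHCKO + DOX, so these groups overlapped. Of 8 genes of chaperone-assisted autophagy 0 were called in A17fl/fl and 1 was higher in A17α-MHCKO, Stub1. The shares of all tested genes called with doxorubicin were 10.7% in A17fl/fl and 6.42% in A17α-MHCKO.

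Lists of 3 other programmes, which are not autophagy genes, were followed beside these. The shares of all tested genes called with doxorubicin were again 10.7% in A17fl/fl (6.58% lower) and 6.42% in A17α-MHCKO (2.44% lower). Of 15 FoxO-responsive and fasting genes, 3 were lower with doxorubicin in A17fl/fl, Ccng2, Angptl4 and Pdk4, and 1 in A17α-MHCKO, Ccng2. Angptl4 had 83.9 CPM in A17fl/fl + NS replicate 1 against 12.7 and 18.5 CPM in replicates 2 and 3, and was not called without replicate 1. Pdk4 had 144, 712 and 2264 CPM in A17fl/fl + NS against 126 to 215 CPM in A17fl/fl + DOX, and was not called without replicate 3. Ccng2, a FoxO target of the cyclin family, was called without either library. It had 34.3, 21.8 and 31.4 CPM in A17fl/fl + NS, 17.98, 16.6 and 17.6 CPM in A17fl/fl + DOX, 33.0, 24.2 and 29.5 CPM in A17α-MHCKO + NS and 20.6, 19.5 and 22.2 CPM in A17α-MHCKO + DOX. As for Bnip3 and Ctsl, replicates 1 and 3 of each saline group were the highest of their group, and unlike for those genes every saline library of a genotype lay above every doxorubicin library of it. Over both genotypes its log2 fold change was -0.61 (SE 0.12, adjusted p = 0.176, edgeR). Of 10 glucocorticoid-responsive genes 4 were lower in A17fl/fl, Mt2, Lcn2, Mt1 and Fkbp5 (the last named after its values were seen), and 0 were called in A17α-MHCKO. In A17fl/fl + NS replicate 1, where macrophage and neutrophil markers were high, Lcn2 had 494 CPM, against 4.55 and 15.7 CPM in replicates 2 and 3. Mt2 had 462 CPM there, against 43.3 and 51.5 CPM, and Mt1 had 781 CPM, against 212 and 335 CPM. The part of the other cell types in these levels was not tested. Without replicate 1 Mt2 was still called (-1.29 on the log2 scale, against -3.26), and Lcn2 (-0.14), Mt1 (-0.87) and Fkbp5 (-0.90) were not. Of 14 circadian genes 1 was lower in A17fl/fl, Cry1, which was not called without that replicate, while 4 were higher and 3 lower in A17α-MHCKO.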

How the data were processed

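The authors deposited one table with an unnormalized count and an FPKM for each gene and mouse. Per the labels and the study's methods, the reads of a stranded paired-end mRNA kit passed through CASAVA 1.8, HISAT2 and SAMtools 1.3.1 on GRCm39, StringTie counted fragments, and TMM with edgeR followed; the annotation release and strand setting were not given in the sources used here. The deposited FPKM are counts divided by length and library total, without TMM.

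The fit used edgeR 4.0.16 under R 4.3.3 (filterByExpr, TMM, glmQLFit, 4 group means, 16101 genes, Benjamini-Hochberg adjustment), with DESeq2 1.42.0 as an alternative. Standard errors were derived from F and are approximate. Depth ran from 15950717 to 21725076 counts, and the spread between mice (common dispersion 0.0842) exceeded counting error. The fit was tested on simulated data. Permutation tests were exact and two-sided (160 of 3 against 3, with a smallest p of 0.1, and 80 of 6 against 6).

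The members and lists were chosen with earlier results of these data known. Members called at an unadjusted p under 0.05, at most 6 per comparison, and Map1lc3b, Sqstm1, Bnip3, Pink1, Tfeb and Ulk1 are given for each library, and of each list up to 3 genes with the smallest p per comparison are named, except for a result that is not reported here. The alternatives were RLE and upper-quartile normalization, no filter, at least 10 counts in every library, the 2 groups alone, a replicate block, each library left out, CPM in place of FPKM and, chosen after seeing the data, added pseudogene counts and list counts without A17fl/fl + NS replicate 1 or 3. Sequences are from GENCODE M21 on GRCm38 and RefSeq on GRCm38.p6. No genome coordinates of the authors' build were used.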

Additional observations from a re-analysis of the deposited data

Results flagged for a closer look

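Between the genotypes, 2 members differed in their change with doxorubicin at an unadjusted p under 0.05, and neither did after adjustment over all genes. The change of Atg12 in A17α-MHCKO minus that in A17fl/fl was 0.40 on the log2 scale (SE 0.15, adjusted p = 0.828, edgeR). That of Sqstm1 was 0.90 (SE 0.41, adjusted p = 0.828, edgeR) and 0.42 without A17fl/fl + NS replicate 3.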

How the results depend on the processing

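The number of members called at an unadjusted p under 0.05 depended on the processing. With doxorubicin in A17fl/fl it was 9 by DESeq2 and 2 with the 2 groups alone, against 4. With doxorubicin in A17α-MHCKO it was 2 with upper-quartile normalization and 3 with the 2 groups alone, against 1. Between the genotypes after saline it was 0 with the 2 groups alone, against 2. After doxorubicin it was 1 with no filter, 0 with the replicate block and 1 with the pseudogene counts added, against 2. For the interaction it was 1 with RLE, with upper-quartile normalization, with no filter and with at least 10 counts in every library, against 2. For the genotype averaged over treatments it was 0 with upper-quartile normalization, with no filter and with the replicate block, and 2 by DESeq2, against 1. The cause was not tested. When single libraries were left out, the counts ran from 1 to 11 with doxorubicin in A17fl/fl, from 1 to 3 in A17α-MHCKO, from 0 to 8 between the genotypes after saline, from 0 to 2 after doxorubicin, from 0 to 5 for the interaction, from 3 to 13 for doxorubicin averaged over the genotypes and from 0 to 3 for the genotype averaged over treatments. The highest of most ranges (11, 8, 5 and 3) came without A17fl/fl + NS replicate 2, where 20.8%, 20.1%, 14.3% and 13.5% of all tested genes were called, and that of 13 without replicate 1, where 15.0% were.

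Replicate numbers were not taken to pair the mice. Same-numbered libraries of different groups had residual correlations from -0.10 to 0.22 (median 0.00), over 0.1 in 3 of 18 pairs. With the replicate block the counts in the order above were 3, 1, 2, 0, 3, 7 and 0. Atg12 and Map1lc3b between the genotypes after doxorubicin, Rb1cc1 and Atg2a with doxorubicin in A17fl/fl and Atg2a between the genotypes lost their calls under it. Of 297 values of the 18 single calls under the alternatives, 0 changed sign, 201 stayed past the threshold and 96 did not. The count of members that met the study's limits was the same with CPM in place of FPKM. The lowest count of any member in any library was 145.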
